A study of Mus musculus with 16 samples.

Results

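The keratins Krt7, Krt8, Krt18, Krt19, Krt20 and Krt23 and the membrane mucins Muc1, Muc4, Muc13 and Muc20 were followed in islets of mice with a conditional mutation of Insm1, which encodes a DNA-binding zinc finger protein found in neuroendocrine cells. These 10 genes, of 18193 measured, were taken by symbol from the platform annotation, and 16 of the 34945 probe sets that name a single gene belong to them. Each gene was read from its brightest probe set over all arrays, and the remaining probe sets of Krt8, Muc4, Muc13 and Muc20 are given beside it. The values are log2 signals of Affymetrix Mouse430_2 arrays, 1 array for each islet preparation.

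The 8 mutant preparations came from RIPcreER; Insm1flox/lacZ mice, and the 8 control preparations from RIPcreER; Insm1flox/+ mice. RIPcreER is a recombinase that tamoxifen activates and the rat insulin promoter drives, so that recombination is directed to beta cells. All mice of both groups carried it together with a floxed Insm1 allele, and all received tamoxifen (25 mg, released over 21 days) at an age of 4 to 5 weeks. Islets were taken at 8 to 12 weeks, and the strain background was a mixture of CBA/J, 129/ola and C57BL/6. The lacZ allele was present in every cell of the mutants, and the floxed allele could also recombine in control beta cells, which kept a wild-type allele. The controls are described as matched by litter, and the groups share replicate numbers 1 to 8. The comparison asks which transcripts of adult islets differ when beta cells lose Insm1.

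Keratins are the intermediate filament proteins of epithelia, and a filament forms from a type I keratin (Krt18, Krt19, Krt20 and Krt23) paired with a type II keratin (Krt7 and Krt8). Krt8 and Krt18 are the usual pair of simple epithelia, pancreatic cells included, while Krt7 and Krt19 are used as markers of pancreatic ducts. Membrane mucins are transmembrane proteins with long O-glycosylated ectodomains that cover the apical face of epithelial cells.

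The start regions of 2 neighbouring gene pairs are shown because the members of each pair are set side by side in the results. Muc4 and Muc20 overlap on opposite strands of chromosome 16, and Krt8 and Krt18 are adjacent on chromosome 15. Each sequence is the 250 bases before the gene's start in RefSeq on GRCm38.p6, read 5′ to 3′ on the gene's strand, with motif matches in capitals. They lie at chr16:32735636-32735885 on the plus strand for Muc4, chr16:32797436-32797685 on the minus strand for Muc20, chr15:102004343-102004592 on the minus strand for Krt8 and chr15:102027966-102028215 on the plus strand for Krt18.
Muc4: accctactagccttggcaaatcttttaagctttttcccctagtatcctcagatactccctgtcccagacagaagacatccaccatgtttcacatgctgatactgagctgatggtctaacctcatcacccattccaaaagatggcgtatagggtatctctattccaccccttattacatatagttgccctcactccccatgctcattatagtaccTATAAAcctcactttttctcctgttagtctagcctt
Muc20: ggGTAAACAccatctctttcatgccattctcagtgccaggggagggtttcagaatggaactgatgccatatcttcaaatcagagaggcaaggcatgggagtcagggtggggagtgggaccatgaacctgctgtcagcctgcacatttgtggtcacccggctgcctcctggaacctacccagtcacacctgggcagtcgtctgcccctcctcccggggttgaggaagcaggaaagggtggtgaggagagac
Krt8: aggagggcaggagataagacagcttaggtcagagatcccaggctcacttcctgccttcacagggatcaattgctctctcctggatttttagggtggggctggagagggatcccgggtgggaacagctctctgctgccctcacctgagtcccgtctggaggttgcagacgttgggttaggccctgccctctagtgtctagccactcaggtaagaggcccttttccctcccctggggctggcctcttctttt
Krt18: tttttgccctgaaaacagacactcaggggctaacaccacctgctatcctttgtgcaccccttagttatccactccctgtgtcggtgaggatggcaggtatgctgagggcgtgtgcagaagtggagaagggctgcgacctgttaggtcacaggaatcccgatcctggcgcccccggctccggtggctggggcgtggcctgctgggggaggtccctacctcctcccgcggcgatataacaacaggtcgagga
The motifs searched on both strands were TATAAA (a core promoter box) and TGTTTAC (bound by forkhead factors such as Foxa2). Of the E-boxes, the form CAGATG, which Neurod1 binds, was searched, and so was the palindrome CAGCTG. No match overlapped another in the windows shown. The Muc4 window held 1 TATAAA, a motif found in 12.4% of 32851 promoters, and the Muc20 window held 1 TGTTTAC in its reverse form, found in 3.17%. The Krt8 and Krt18 windows held none of the 4 motifs. Among the other members with an entry, TATAAA stood also in the Muc1 and Krt20 windows, and CAGATG, found in 14.4% of promoters, in those of Muc1, Krt23 and 1 of the 2 start regions of Muc13. The Krt7 window held none, CAGCTG, found in 13% of promoters, was in none of the members' windows, and no sequence was matched for Krt19.

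Array medians lay between 6.29 and 6.35, and correlations between arrays ranged from 0.971 to 0.993. Signals below the lowest of these medians are called dim here. Endocrine markers bore out the islet label: 9 of 12 listed genes were measured, and Ins2, Iapp and Gcg averaged 15.37, 15.16 and 15.07 in mutant islets against 15.36, 15.15 and 15.00 in control islets, near the highest value on the arrays, 15.39. Insm1 itself averaged 11.02 ± 0.22 in mutant islets and 11.26 ± 0.23 in control islets (SD, n = 8 each), a difference of −0.25 ± 0.11 (SE) that was negative in 5 of 8 pairs and did not pass the test (limma, adjusted p = 0.182). Where its probe set lies relative to the floxed part is not given, so this does not check the labels. Some arrays of pairs 1 to 3 stood apart in markers of other cells. The mean of 17 immune markers was 9.53, 8.13 and 9.24 in mutants 1, 2 and 3, against at most 7.24 in the other mutants. It was 8.47 in control 1 against at most 7.26 in the other controls. Controls 2 and 3, at 6.76 and 6.94, did not stand apart in this mean but share replicate numbers with mutants 2 and 3. Results are therefore also given without pairs 1 to 3.

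Across all genes, 1594 of 18193 passed an adjusted p under 0.05 (limma, two-sided, Benjamini-Hochberg over all genes), which is 8.76%, with 746 (4.1%) higher and 848 (4.66%) lower in mutant islets. Of the 10 keratins and mucins, 2 fell in mutant islets, the membrane mucin Muc4 and the keratin Krt19, and 8 did not pass. Of the 10 differences 8 were below 0, with a median of −0.11 on the log2 scale, against 9445 of 18193 and a median of −0.01 over all genes. Same-numbered arrays deviated together, and with the replicate number as a block 3200 genes passed (17.6%; lower in mutant islets 9.71%), and 4 of the members, all lower, as Krt8 and Krt18 were added. Over probe sets, 3 of the members' 16 were called, against 6.86% of all, and 6 with the block, against 13.9%. No member's groups were free of overlap. The p-values measure the spread between preparations. In whole islets, fewer cells of a type and less RNA per cell cannot be told apart.

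**Figure D1:**
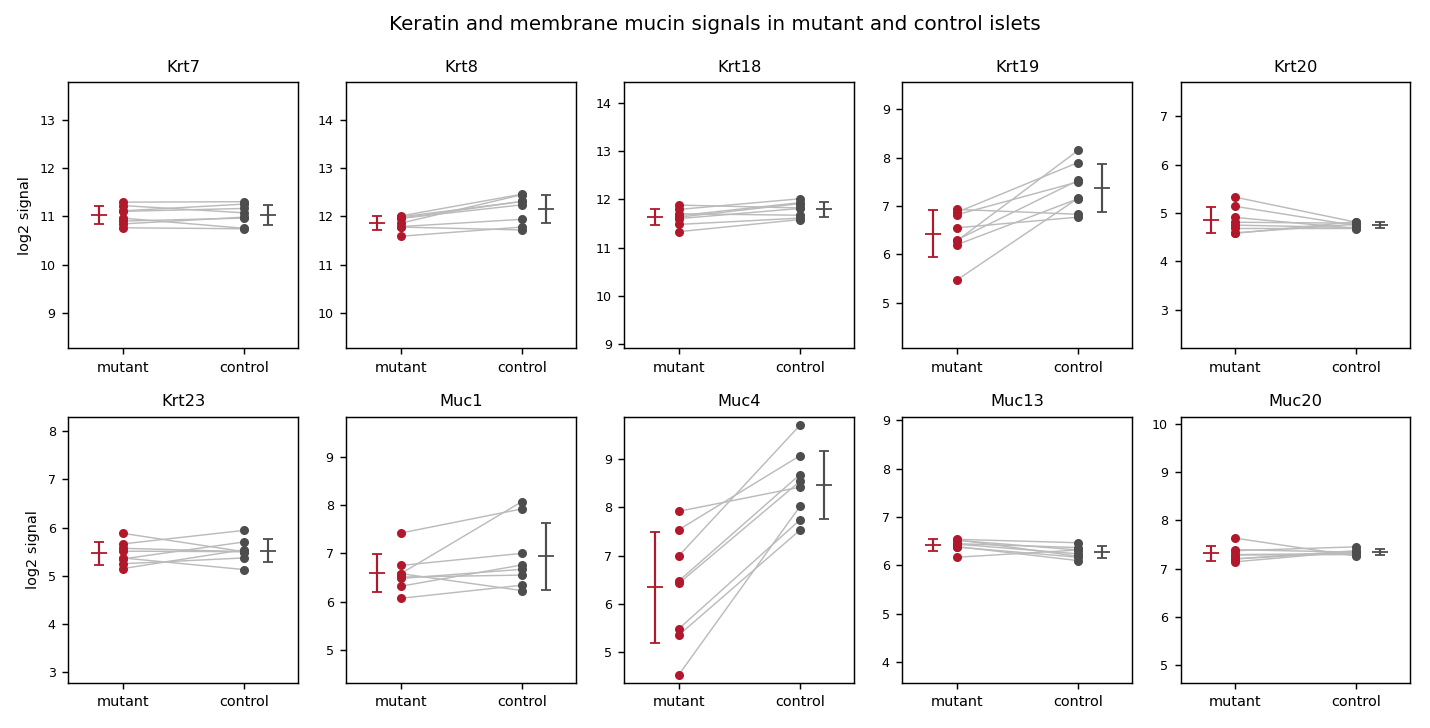
Log2 signal of each keratin and mucin in 8 mutant (left) and 8 control (right) preparations; grey lines join arrays with the same replicate number, bars show mean ± SD, and each panel spans the same number of log2 units. Muc4 was lower in 8 of 8 pairs and Krt19 in 7 of 8, whereas Krt7, Krt20, Krt23 and Muc20 show no shift that passed the test.

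Muc4, a large mucin known from rat and human cells as a partner of the receptor ErbB2, showed the largest difference of the 10. Its signal had a lowest value of 4.54, a median of 6.45 and a highest of 7.92 in mutant islets, against 7.53, 8.48 and 9.70 in control islets. The groups overlapped, but 6 mutants lay below the lowest control and 6 controls above the highest mutant. The means were 6.34 ± 1.15 in mutant islets and 8.46 ± 0.71 in control islets (SD, n = 8 each). Muc4 was thus 4.34-fold lower in the mutant, a log2 difference of −2.12 ± 0.43 (SE; 95% confidence interval −3.03 to −1.20; limma, adjusted p = 0.00455). The fall was seen in 8 of 8 pairs, a pattern of 7.21% of all genes, and ranged between −0.51 in pair 2 and −3.48 in pair 4. In 3 mutants the signal was dim, where background compresses differences.

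The brightest Muc4 probe set, 1438555_x_at, carries the suffix of sets whose probes can also match other transcripts. A second Muc4 set, 1427398_at, without that suffix, had a lowest value of 5.35, a median of 6.24 and a highest of 6.96 in mutant islets, against 6.78, 7.15 and 8.48 in control islets. Again 6 mutants lay below the lowest control, and all 8 pairs were lower in the mutant. On this set the signal was dim in 5 mutants. This set was 2.41-fold lower, by −1.27 ± 0.28 (SE; limma over all probe sets, adjusted p = 0.00965). The third, 1432119_at, was dim in all 16 arrays, with 4.06 ± 0.14 in mutant and 4.05 ± 0.16 in control islets (SD, n = 8 each), a difference of 0.01 that did not pass (limma, adjusted p = 0.963). Averaged over the 3 sets the difference was −1.13. Without pairs 1 to 3 it was −2.32 on the brightest set (adjusted p = 0.0228; range over all alternatives 0.00021 to 0.53).

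Krt19, a type I keratin that lacks the usual tail domain and marks duct cells, had a lowest value of 5.47, a median of 6.43 and a highest of 6.93 in mutant islets, against 6.77, 7.33 and 8.15 in control islets. The groups overlapped: 5 mutants lay below the lowest control, and 6 controls above the highest mutant. The means were 6.43 ± 0.48 in mutant and 7.37 ± 0.49 in control islets (SD, n = 8 each). Krt19 was 1.93-fold lower in the mutant, by −0.95 ± 0.22 (SE; 95% confidence interval −1.41 to −0.48; limma, adjusted p = 0.0113). The difference was negative in 7 of 8 pairs, strongest in pair 7 at −1.87, and 0.10 in pair 8. Krt19 has a single probe set, and its signal was dim in 3 mutants. Without pairs 1 to 3 the difference was −1.08 and no longer passed without the block (adjusted p = 0.06; with the block 0.029; range over all alternatives 0.00674 to 0.79).

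**Figure D2:**
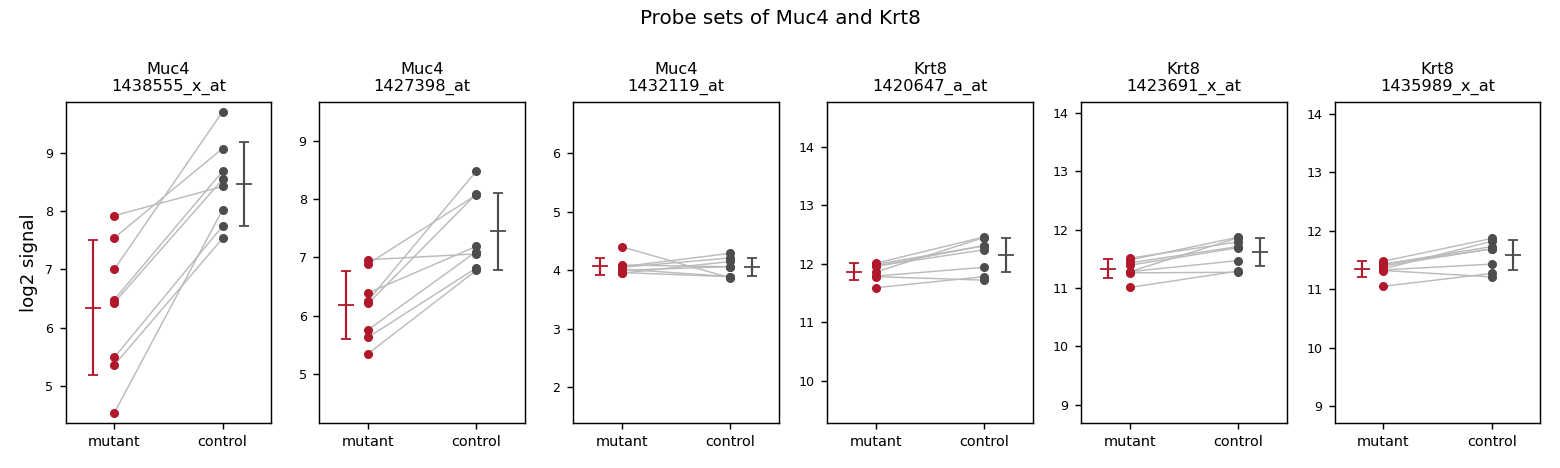
Log2 signal of the 3 probe sets of Muc4 and the 3 of Krt8 in mutant (left) and control (right) preparations; grey lines join the same replicate number, bars show mean ± SD, and panels span the same number of log2 units. Muc4 sets 1438555_x_at and 1427398_at lie lower in mutant islets in each of 8 pairs, the third set is flat and dim, and the 3 Krt8 sets differ by −0.24 to −0.29.

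Krt8, the type II partner of simple epithelia, was bright in both groups. It had a lowest value of 11.59, a median of 11.91 and a highest of 12.01 in mutant islets, against 11.72, 12.27 and 12.46 in control islets. Among the controls 5 lay above the highest mutant, and controls 6, 7 and 8 lay within the mutants' range. The means of 11.87 ± 0.14 and 12.15 ± 0.29 (mutant and control; SD, n = 8 each) differed by −0.28 ± 0.11 (SE), 1.22-fold, with a 95% confidence interval of −0.51 to −0.05, and this did not pass over all genes (limma, adjusted p = 0.129). With the replicate block it passed (limma, adjusted p = 0.00976; range over all alternatives 0.00976 to 0.923), the difference being negative in 7 of 8 pairs. It also passed without control 8 (−0.34, adjusted p = 0.0478), but not without pairs 1 to 3, with or without the block (−0.20, adjusted p = 0.534 and 0.114; mutant minus control). The other sets gave −0.29 and −0.24, with adjusted p = 0.0901 and 0.156 over probe sets and 0.00519 and 0.0191 with the block (limma).

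Krt18, its type I partner, had a lowest value of 11.33, a median of 11.64 and a highest of 11.88 in mutant islets, against 11.58, 11.81 and 12.01 in control islets. The ranges overlapped over most of their length. The means of 11.64 ± 0.17 and 11.79 ± 0.16 (mutant and control; SD, n = 8 each) differed by −0.16 ± 0.08 (SE; 95% confidence interval −0.33 to 0.01), which did not pass (limma, adjusted p = 0.282). With the block it passed (adjusted p = 0.0465; range over all alternatives 0.00505 to 0.894), being lower in 6 of 8 pairs, but not once pairs 1 to 3 were left out (−0.12, adjusted p = 0.308). Krt8 and Krt18 were thus both somewhat lower in mutant islets within pairs. The deviations of the 2 keratins from their group means were hardly correlated over the 16 arrays (Pearson r = 0.09), but this depended on the arrays used. Without pairs 1 to 3 r was 0.77 (10 arrays), and over differences within pairs it was 0.46 (n = 8). Neither passed over the 45 pairs of members (permutation, adjusted p = 0.422 and 0.819).

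Krt7, the other type II keratin, averaged 11.02 ± 0.19 in mutant islets and 11.03 ± 0.21 in control islets (SD, n = 8 each). The groups covered the same range, and the difference of −0.01 had a 95% confidence interval of −0.20 to 0.19 (limma, adjusted p = 0.985). Krt20, known from gut and urothelium, and Krt23 were dim in all 16 arrays. Krt20 averaged 4.85 ± 0.27 in mutant and 4.75 ± 0.05 in control islets, with mutants 1, 3 and 5 above the highest control, and Krt23 averaged 5.47 ± 0.24 in mutant and 5.52 ± 0.23 in control islets (SD, n = 8 each). Their differences of 0.10 (95% confidence interval −0.09 to 0.29) and −0.05 (−0.29 to 0.18) did not pass (limma, adjusted p = 0.595 and 0.839).

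Muc1, a mucin of the apical face of duct and acinar cells, had a lowest value of 6.07, a median of 6.55 and a highest of 7.42 in mutant islets, against 6.23, 6.72 and 8.07 in control islets. Mutant 1 was the highest mutant, and controls 1 and 2 stood well above the other controls. The difference of −0.35 ± 0.26 (SE) was negative in 7 of 8 pairs but did not pass (95% confidence interval −0.89 to 0.19; limma, adjusted p = 0.484). Muc13, a mucin of gut epithelium, averaged 6.43 ± 0.12 in mutant and 6.27 ± 0.12 in control islets (SD, n = 8 each) and was higher in the mutant in 7 of 8 pairs. Its difference of 0.16 (95% confidence interval 0.02 to 0.30) did not pass (limma, adjusted p = 0.152), and its other probe set, dim in every array, differed by −0.03. Muc20, known in human cells to bind the receptor Met, averaged 7.31 ± 0.16 in mutant and 7.34 ± 0.06 in control islets (SD, n = 8 each). Its 2 probe sets differed by −0.03 and −0.05, so that the neighbour whose gene overlaps Muc4 showed no difference that passed (limma, adjusted p = 0.859 and 0.722; 95% confidence interval on the brighter set −0.16 to 0.11).

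**Figure D3:**
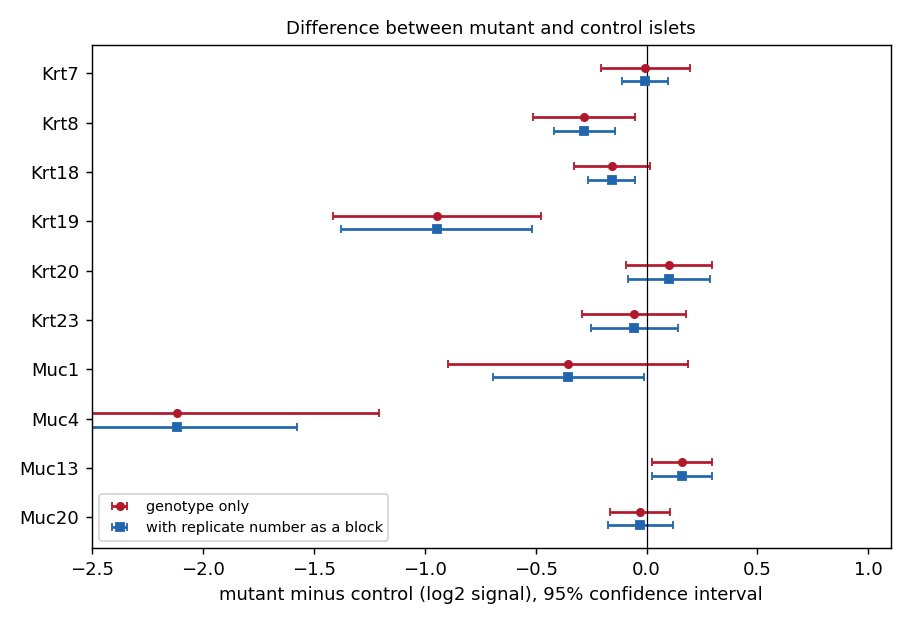
Difference of each gene, mutant minus control, in log2 signal with its 95% confidence interval, fitted with genotype only (circles) and with the replicate number as a block (squares). The intervals of Muc4 and Krt19 lie wholly below 0 in both fits, and the block narrows the intervals of Krt8 and Krt18.

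The other genes of the 2 families gave no calls. None of 42 further keratins passed, with a median difference of −0.02, and the one with the lowest p was Krt80, at 6.08 ± 0.25 in mutant and 6.33 ± 0.22 in control islets (SD, n = 8 each; −0.25, adjusted p = 0.197, and 0.0465 with the block, limma). None of 5 further mucins passed either, Muc15 having the lowest p (0.05, adjusted p = 0.736). Of 10 other intermediate filament genes none passed, and Nes, the filament protein nestin, had the lowest p (−0.15, limma, adjusted p = 0.216).

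Among 13 genes that anchor keratins at junctions, 1 fell and 12 did not pass. Dsp, desmoplakin, which ties keratin filaments to desmosomes, ranged between 10.49 and 10.81 in mutant islets with a median of 10.70, and between 10.92 and 11.24 in control islets with a median of 11.15. The groups did not overlap, as in 2.29% of all genes. Dsp differed by −0.43 ± 0.06 (SE), 1.35-fold lower, in 8 of 8 pairs (limma, adjusted p = 0.0002), and by −0.48 without pairs 1 to 3. With the block Dsc2, the desmosomal cadherin desmocollin 2, was also called lower (−0.30, limma, adjusted p = 0.0477).

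Of 27 measured genes of epithelial junctions and their regulators, 2 fell and 25 did not pass. With the block 4 fell and 1 rose, the claudin Cldn3 (−0.14) and Marveld3 (−0.23) being added to those lower and Prom1, prominin 1, being higher (0.90, in 8 of 8 pairs; limma, adjusted p = 0.028, 0.0486 and 0.00854). Tjp3, the tight junction scaffold ZO-3, was dim in the mutant: its signal ranged between 5.48 and 5.94 with a median of 5.73 in mutant islets, and between 6.08 and 6.72 with a median of 6.32 in control islets. Here too the groups did not overlap, and the difference was −0.61 ± 0.09 (SE), 1.53-fold lower, in 8 of 8 pairs (limma, adjusted p = 0.000179). St14, the membrane protease matriptase, averaged 7.07 ± 0.16 in mutant and 7.43 ± 0.26 in control islets (SD, n = 8 each). Its difference of −0.36 passed narrowly (limma, adjusted p = 0.0394) and no longer did so in 11 of the 16 fits that each left out 1 array (adjusted p up to 0.0804) or without pairs 1 to 3.

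Of 19 measured mucin glycosylation genes 1 rose, 2 fell and 16 did not pass. Galnt2, an enzyme that starts O-glycosylation by adding N-acetylgalactosamine, ranged between 9.44 and 9.87 with a median of 9.63 in mutant islets, and between 9.12 and 9.25 with a median of 9.18 in control islets. Every mutant lay above every control, and Galnt2 was 1.36-fold higher, by 0.44 ± 0.06 (SE), in 8 of 8 pairs, as in 5.79% of all genes (limma, adjusted p = 8.05e-05). Gcnt1, the enzyme that branches core 1 O-glycans to core 2, averaged 4.68 ± 0.33 in mutant and 5.53 ± 0.50 in control islets (SD, n = 8 each), dim on all 16 arrays. It was lower by −0.85 ± 0.19 (SE; limma, adjusted p = 0.00889), in 7 of 8 pairs. St3gal1, a sialyltransferase of O-glycans, averaged 5.98 ± 0.25 in mutant and 6.31 ± 0.13 in control islets (SD, n = 8 each), and its call (−0.33, limma, adjusted p = 0.0405) was lost in 12 of the 16 fits that left out 1 array.

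Of 6 signalling partners of mucins none passed. The lowest p was that of Met, the receptor of hepatocyte growth factor, which averaged 7.82 ± 0.56 in mutant and 8.61 ± 0.56 in control islets (SD, n = 8 each; −0.79, limma, adjusted p = 0.0644). It passed with the block (limma, adjusted p = 0.0388) and without mutant 8 or without control 8. Together the 7 lists held 122 measured genes, of which 6 were called, where 8.76% of all genes were. With the block 13 of the 122 were called, against 17.6% of all genes, C1galt1 among them (−0.17, limma, adjusted p = 0.0209). The groups did not overlap in 3 of the 122, Dsp, Galnt2 and Tjp3, against 2.29% of all genes.

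**Figure D4:**
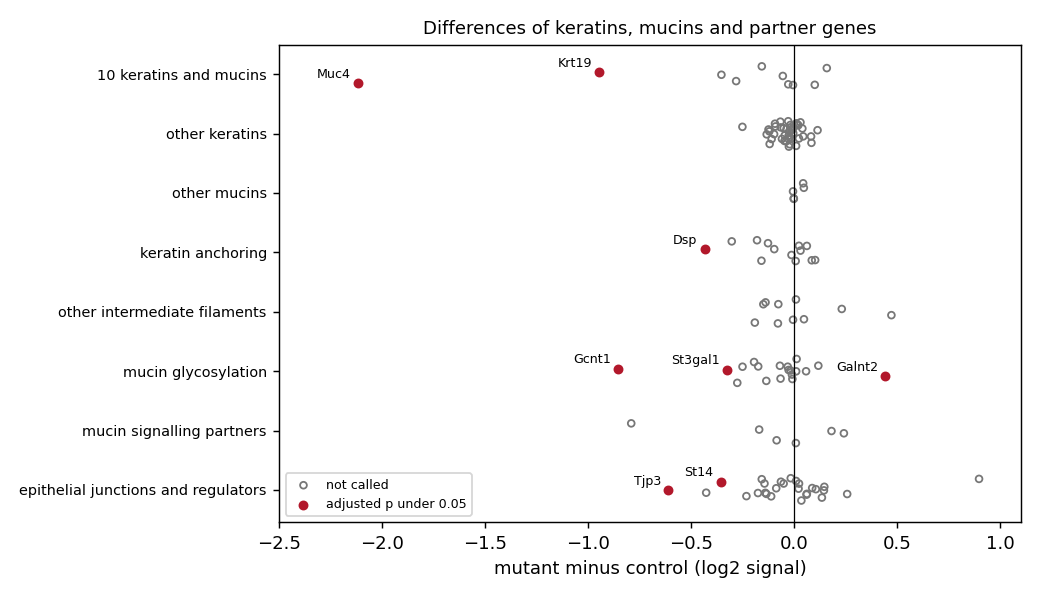
Difference of each gene, mutant minus control, in log2 signal, for the 10 keratins and mucins and 7 lists of related genes; filled points are genes with an adjusted p under 0.05 and carry their names. The called genes are 2 of the 10 keratins and mucins, 1 anchoring gene, 3 glycosylation genes and 2 junction genes, and none of the other keratins or mucins.

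Markers of other pancreatic cells also differed. The mean of 9 measured duct markers, of 11 listed, was 7.10 ± 0.24 in mutant and 7.39 ± 0.28 in control islets (SD, n = 8 each). The sum of their log2 values, which is not a total signal, ranged between 60.7 and 68.0 in mutant and between 64.2 and 70.3 in control islets. The mean was lower in 8 of 8 pairs, with an adjusted exact permutation p of 0.0208 within pairs and 0.0704 over all splits. Of the 9, Pkhd1 and Ambp were called lower (−0.91 and −0.42, limma, adjusted p = 0.0176 and 0.0289). The Ambp call was lost in 6 of the 16 fits that left out 1 array (limma, adjusted p up to 0.0598). With the block 3 fell and 2 rose: Tff2, the trefoil peptide with the largest difference of the 9 (−1.29), was added to those lower, and the transporter Slc4a4 (0.23, in 8 of 8 pairs) and Dcdc2a (0.55, in 7 of 8) were higher in mutant islets (limma, adjusted p = 0.00102, 0.0439 and 0.0353 with the block). Neither of the defining markers Sox9 (6.11 in mutant and 6.26 in control islets) and Cftr (3.96 and 4.14, mutant and control) was called. Both were below the array medians on average, and Cftr was dim on every array. With the duct mean as a covariate the differences were −1.80 for Muc4 and −1.03 for Krt19, and both were called (limma, adjusted p = 0.0239 and 0.0166). With the duct mean and the block together they were −3.09 and −1.30, of which that of Muc4 passed (limma, adjusted p = 0.0449 and 0.357).

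The mean of 22 measured acinar markers was lower in mutant islets, 10.73 ± 1.55 against 12.14 ± 0.89 in control islets (SD, n = 8 each, exact permutation, adjusted p = 0.0208 within pairs and 0.0704 over all splits), with sums of log2 values of 184 to 286 in mutant and 245 to 296 in control islets. Of the 22, 1 fell, Bhlha15, and 20 fell with the block. The Bhlha15 call without the block was lost in 11 of the 16 fits that left out 1 array (limma, adjusted p up to 0.0813). With that mean as a covariate Muc4 and Krt19 differed by −1.98 and −0.86 and were called. With the acinar mean and the block they differed by −2.10 and −0.80 and were not (limma, adjusted p = 0.0526 and 0.339). Krt18 was called with either mean as a covariate without the block (−0.27 with the acinar and −0.30 with the duct mean). Of 7 mesothelial markers only Msln, mesothelin, was called, at 6.70 ± 0.19 in mutant and 8.23 ± 0.23 in control islets (SD, n = 8 each; limma, adjusted p = 3.93e-08). The acinar and duct means themselves differed with genotype within pairs, so the fits with them as covariates cannot separate cell types from genotype. The part of other cell types in the Muc4 and Krt19 differences was not tested.

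The 3′ minus 5′ signals, a measure related to RNA quality, differed with genotype within pairs but did not pass over all splits. That of the Gapdh control probe sets was −0.26 in mutant and −0.19 in control islets, lower in 8 of 8 pairs. Its exact permutation p within pairs was 0.00781, the smallest that 8 pairs allow (adjusted p = 0.0156, and 0.129 over all splits). That of beta-actin was 0.97 in mutant and 1.07 in control islets, lower in 7 of 8 pairs (exact permutation, adjusted p = 0.0156 within pairs and 0.129 over all splits). With the 3′ minus 5′ difference as a covariate Muc4 and Krt19 differed by −1.57 and −1.09 and both were called (limma, adjusted p = 0.0458 and 0.0171). With that difference and the block together, Muc4 and Krt19 differed by −2.55 and −1.20 and neither passed (limma, adjusted p = 0.0597 and 0.287).

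Apart from genotype, Krt7 and Muc1 varied in opposite directions between preparations. Over deviations of the 16 arrays from their group means Pearson r was −0.875 and Spearman rho −0.891 (permutation p = 2e-05, adjusted over 45 pairs of members 0.0009), and r was −0.827 without the 2 arrays farthest from the median. Within the groups r was −0.831 in mutant islets and −0.927 in control islets (n = 8 each, exact permutation p = 0.0032 and 0.00126). Because same-numbered arrays share deviations, the 16 are not fully independent. Over the 8 differences within pairs r was −0.886 (exact permutation p = 0.000372, adjusted p = 0.0167), the one relation of the 45 to pass there, and without pairs 1 to 3 it was −0.685 and did not (adjusted permutation p = 0.435). Krt23, dim on all 16 arrays, was related to Krt7 (r = −0.772) and Muc1 (r = 0.730) over the 16 arrays (permutation, adjusted p = 0.0101 and 0.021). By Spearman rho the relation to Muc1 did not pass (0.694, permutation, adjusted p = 0.0532). Over differences within pairs r was −0.660 and 0.623 and did not pass (n = 8, exact permutation, adjusted p = 0.561 for both). Without pairs 1 to 3 r was −0.616 and 0.612 and did not pass either (10 arrays, permutation, adjusted p = 0.513 for both).

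Of 30 relations of the members to the duct, acinar and immune means 5 passed over the 16 arrays, and none did over differences within pairs or without pairs 1 to 3. With the duct mean, r was 0.845 for Muc1, −0.767 for Krt7, −0.790 for Krt18 and 0.650 for Krt23 (permutation, adjusted p = 0.0062 for the first 3 and 0.0399 for Krt23). Over differences within pairs, r was 0.841 for Muc1 and −0.921 for Krt7 (n = 8, exact permutation, adjusted p = 0.195 and 0.058), but 0.236 for Krt18. Mutant 1 and controls 1 and 2 stood apart with high duct means. Without the 2 arrays farthest from the median, r was 0.730 for Muc1, −0.638 for Krt7 and −0.636 for Krt18. Without pairs 1 to 3, r was −0.29 for Muc1, −0.02 for Krt7, −0.43 for Krt18 and 0.25 for Krt23 (10 arrays). The fifth was Krt23 with the immune mean, whose r was 0.652 with, and 0.09 without, pairs 1 to 3. For Krt19 and Muc4, the called members, the relation to the duct mean did not pass (r = −0.145 and 0.300, permutation, adjusted p = 0.738 and 0.455). Their relation to each other (r = 0.06) did not pass either. With 16 arrays, moderate relations are not excluded.

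**Figure D5:**
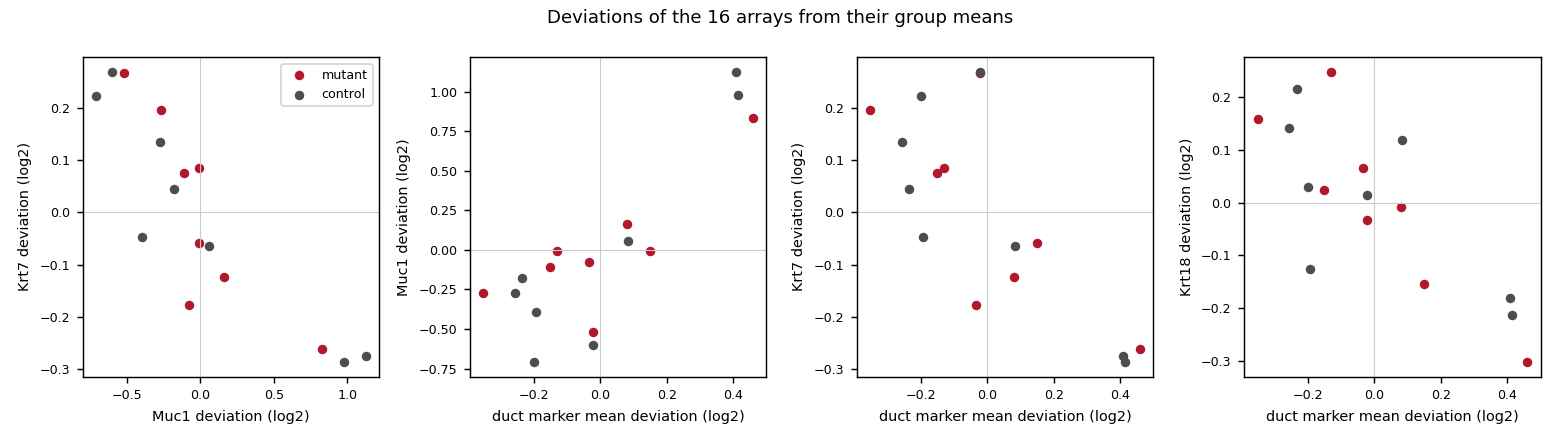
Deviations of the 16 arrays from their group means in log2 units, mutant and control arrays in different colours, for Krt7 against Muc1 and for Muc1, Krt7 and Krt18 against the duct marker mean. Krt7 falls as Muc1 increases in both groups, and 3 arrays with high duct means, mutant 1 and controls 1 and 2, lie apart in the other panels.

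By the same measure, the genes whose deviations were most like those of Muc4 over the 16 arrays were Prss53, a serine protease (r = 0.886), Lppos (r = 0.883) and Rnaseh2a (r = 0.876). Such genes, here and for Krt19, were picked for the highest r among all genes. Picking alone can give high values, so each r is a description and was not tested. Of these Prss53 also fell, to 10.30 ± 0.70 in mutant islets against 11.95 ± 0.35 in control islets (SD, n = 8 each; −1.66, limma, adjusted p = 0.000406). The genes most like Krt19 were Cda, cytidine deaminase (r = 0.815), 4833439F03Rik (r = 0.813) and Rasl12 (r = 0.789). Cda averaged 6.40 ± 0.66 in mutant and 7.68 ± 0.42 in control islets (SD, n = 8 each) and fell as well (−1.28, limma, adjusted p = 0.00343). The other 4 of these genes did not pass, but with the block Lppos was called lower (−0.26, in 7 of 8 pairs) and Rnaseh2a higher (0.23, in 7 of 8 pairs; limma, adjusted p = 0.0158 and 0.0315).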

How the data were processed

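Per the labels' protocols, islet RNA was prepared with Trizol, and biotinylated cRNA was made from 150 ng with the 3′ IVT Express chemistry. The values are the log2 signals deposited by the authors, 1 per probe set. Their background correction, summarisation and normalisation are not given in the sources used here, and the log base was taken from the values (highest 15.39). No columns were identical and no further scaling was applied. Of 45101 probe sets, 64 control sets were left out, 34945 named 1 gene, 932 several and 9160 none. Symbols were updated to RefSeq on GRCm38.p6 for 34741 sets. Each of 18193 genes was read from its brightest set.

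The groups were tested in R 4.3.3 using limma 3.58.1 (lmFit, eBayes with a variance trend), with Benjamini-Hochberg adjustment over all genes. Marker means were tested by exact permutation (12870 splits; 256 sign changes within pairs; smallest p 0.000155 and 0.00781), adjusted over 8 lists, and correlations with 100000 permutations. The 3′ minus 5′ values were adjusted over the 2 control genes. Deviations correlated between same-numbered arrays in 8 of 8 pairs (0.237 to 0.735; median 0.466, against −0.10 for other numbers), and the design text calls the controls litter-matched. Replicate numbers were on this ground treated as pairs, and blocked values stand beside results whose call they changed.

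The genes named are the 10 members, Insm1, up to 4 called genes of each related list (or the lowest p), the 3 brightest and all called genes of each marker list, and the 3 genes most like each called member. Sox9, Cftr, Socs3, Jun, C2cd4b and genes named because the block called them were chosen after their values were seen. The members and lists were chosen with earlier results of these data known. On simulated data for this comparison (18193 genes), 84 of 100 genes changed 1.5-fold and 99 of 100 changed 3-fold were recovered, with 13 unchanged genes called. The number of arrays limits the precision. The alternatives were other scalings, a filter on dim genes, the mean of probe sets, no trend, array weights, covariates, the block, and leaving out arrays. Tests of relations within pairs and without pairs 1 to 3, and the block on probe sets, were added after seeing the data.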

Additional observations from a re-analysis of the deposited data

Results flagged for a closer look

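Among 144 groups of 8 preparations examined, 8 had a lowest or highest array unusually far from the rest, where chance alone gives about 1 in 20 groups. Mutant 7 was low on the Krt8 probe set 1435989_x_at (11, others 11.3 to 11.5) and on the Muc13 set 1419387_s_at (6.17, others 6.38 to 6.54). Mutant 8 was high on the dim Muc4 set 1432119_at (4.4, others 3.95 to 4.09). Control 1 was low for Bhlha15, an acinar transcription factor (10.3, others 11.2 to 11.3), and high in the immune marker mean (8.47, others 6.71 to 7.26). Control 2 was low for Gcg (14.8, others 14.9 to 15.1) and high in the 3′ minus 5′ signal of Gapdh (0.0443, others −0.282 to −0.147). Mutant 6 was low for 4833439F03Rik (6.49, others 6.65 to 6.77).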

How the results depend on the processing

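Muc4 was called lower in 31 of 34 alternatives and Krt19 in 29 of 34, each negative in all 34 and called in all 16 fits that left out 1 array (Muc4 −2.34 to −1.86, Krt19 −1.03 to −0.81, mutant minus control). The count of 2 called members was 4 with the replicate block, 1 without pairs 1 to 3, 1 with the block and duct mean, and 0 with the block plus the acinar mean, both acinar and immune means, or the 3′ minus 5′ difference. It was 2 to 3 when 1 array was left out. The count of called genes, 1594, was 3200 with the block, 2469 with the duct mean, 828 without pairs 1 to 3, 2398 over probe sets and 1324 to 1645 with 1 array left out. With the block and a covariate it was 672 (acinar), 138 (duct), 28 (acinar and immune) and 238 (3′ minus 5′). The 6 called genes of the related lists became 13 with the block, 12 when every probe set was tested, 4 to 9 with 1 array left out, and 2, 0, 0 and 1 in those 4 fits. The 3 called member probe sets became 6 with the block. Within pairs the adjusted exact permutation p was 0.0208 for the acinar and duct means, 0.025 for the endocrine mean and 0.0156 for the 3′ minus 5′ signals of Gapdh and beta-actin, against 0.0704 for those 3 means and 0.129 for both 3′ minus 5′ signals over all splits. The 5 relations to marker means became 0 over pair differences (the pairing) and 0 without pairs 1 to 3, and the 3 between members became 1 and 0. Signs turned, without a call, for Gcnt1 (0.2565), St14 (0.0366), Dcn (−0.1604) and Col6a1 (−0.2247) with the block plus acinar and immune means, for St14 with the block and duct mean (0.0342), and for Col1a2 (−0.0438), Dcn (−0.0297) and Col6a1 (−0.2032) with the block and the 3′ minus 5′ difference. The cause was not tested. Sign changes between values that were both uncalled are left out here. The block changed no other call of a member.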

Other observations

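Stroma markers were higher in mutant islets. Their mean over 10 genes was 8.65 ± 0.33 in mutant and 8.15 ± 0.20 in control islets (SD, n = 8 each; exact permutation, adjusted p = 0.0155 over all splits and 0.025 within pairs), and 3 of the 10 rose while 7 did not pass. With the block 6 rose, as Mgp, Col1a1 and Lum were added (limma, adjusted p = 0.0151, 0.0244 and 0.0417 with the block). Dcn, the matrix proteoglycan decorin, averaged 9.65 ± 0.61 in mutant and 8.36 ± 0.66 in control islets, and Col1a2, a chain of collagen I, 9.98 ± 0.36 in mutant and 9.38 ± 0.26 in control islets (SD, n = 8 each; limma, adjusted p = 0.00814 and 0.0145). Col6a1 was called narrowly (0.45, limma, adjusted p = 0.0475) and lost the call in 11 of 16 fits that left out 1 array. Tuft cell and endothelial marker means, at 6.22 and 8.65 in mutant against 6.14 and 8.70 in control islets, did not pass (exact permutation, adjusted p = 0.423 and 0.626). The mean of 9 endocrine markers was 13.98 ± 0.10 in mutant and 14.10 ± 0.11 in control islets (SD, n = 8 each), lower in 7 of 8 pairs. Of the 9 differences 6 were above 0, and the lowest was that of Ucn3 (−1.37). Ucn3, a peptide of mature beta cells, was the one endocrine marker of 9 called, at 10.92 ± 0.35 in mutant and 12.28 ± 0.31 in control islets (SD, n = 8 each, limma, adjusted p = 1.79e-05). With the block Ppy, pancreatic polypeptide, was also called, at 15.02 in mutant and 14.81 in control islets (limma, adjusted p = 0.0971 without and 0.0372 with the block).

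The mesothelial mean of 7 genes was lower in mutant islets, 4.98 ± 0.09 against 5.22 ± 0.07 in control islets (SD, n = 8 each; exact permutation, adjusted p = 0.00124 over all splits), and the groups did not overlap. Msln was the one of the 7 that fell, by −1.54, and the difference of the mean rested largely on it. The other differences lay between −0.08 (Rspo1) and 0.08 (Upk3b), so the list as a whole did not follow. Upk1b and Upk3b, which followed it in signal, averaged 6.52 and 5.67 in mutant against 6.58 and 5.59 in control islets and were not called (limma, adjusted p = 0.607 and 0.627).

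The genes whose deviations were most like those of Krt8, looked up after its values were seen, were Socs3, an inhibitor of cytokine signalling, Jun, a subunit of AP-1, and C2cd4b. Over the 16 arrays r was 0.934, 0.927 and 0.913, as a description. None of these 3 passed between genotypes.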
